A study of Mus musculus with 9 samples.

Results

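Ephrins, Slits and netrins are cues that steer growing axons and migrating cells, and the genes of these cues and of their receptors were followed in cultures of the embryonic mouse cortex. A gene was included if the platform table gave its probe set that gene alone and its symbol was that of an ephrin (Efna, Efnb), an Eph receptor (Epha, Ephb), Slit1 to Slit3, Robo1 to Robo4, a netrin (Ntn), a netrin-G (Ntng), an Unc5 receptor, Dcc or Neo1. This gave 39 of the 22180 genes with a named probe set, 16 ligands and 23 receptors. Ephb2 and Ntn5 were not analysed here.

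All cells came from wild-type CD1 mice. Neurons came from the cortex of day 16 embryos and spent 5 days in culture by one label field, 4 days by another. Precursors came from day 13 embryos and spent 1 day in culture. For the co-culture, such precursors were plated onto neurons already cultured for 4 days, and both kinds then shared a dish for 1 day. Each culture was measured on 3 arrays that the labels call biological replicates. Neurons and precursors thus differ in embryo stage, culture time and cell type, and these cannot be told apart. Levels are log2 values, so that a difference of 1 is a 2-fold difference. The number of arrays limits the precision. Probe sets bind with different strength, so levels are compared between cultures and not between genes.

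Ephrins are bound to the cell surface, the A class by a lipid anchor and the B class by a membrane-spanning segment, and contact with Eph receptor kinases on another cell can signal into both cells. Slits are secreted and act through Robo receptors, mostly as repellents. Secreted netrins act through Dcc and Neo1, often as attractants, and through Unc5 receptors as repellents. Netrin-G proteins are anchored to the axon surface and bind partners of their own in place of Dcc or Unc5.

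Marker genes were checked first. The summed level of 6 neuron markers lay at 14.09 to 14.14 in neurons, 13.17 to 13.21 in precursors, with 13.45 to 13.47 in the co-culture. That of 7 precursor markers lay at 12.51 to 12.68, 13.55 to 13.67 and 13.51 to 13.61. Tubb3, a tubulin of young neurons, did not separate the cultures (11.95 in neurons and 11.96 in precursors). All 6 of the interneuron markers with a probe set were above the array median on all 9 arrays. Gad1 (0.71) and Lhx6 (0.72) were higher in neurons than in precursors. Dlx2 (-0.80), Dlx5 (-0.34), Gad2 (-0.25) and Dlx6 (-0.22) were lower. Of 5 endothelial markers 1 was above the median on all 9 arrays. The summed level of 6 astrocyte markers, of which 3 were above the median on all 9 arrays, lay at 10.14 to 10.32 in neurons, 11.25 to 11.37 in precursors and 11.29 to 11.36 with both cells. Of these, Aldoc (-1.78) and Slc1a3 (-0.87) were lower in neurons, Aldh1l1 was higher (0.33), and Gfap, Aqp4 and S100b were below the filter. That of 7 microglia markers, of which 2 were above the median on all 9 arrays, lay at 9.74 to 9.91, 9.99 to 10.18 and 9.96 to 10.02. Fcer1g (-1.01) and Tyrobp (-0.38) were lower in neurons and Aif1 was higher (0.41). Tyrobp and Aif1 passed the filter only through cultures where they were higher. Cx3cr1 and C1qa did not pass, and Csf1r and Itgam were below the filter. In neurons, precursors and co-culture, 5 oligodendrocyte lineage markers summed to 9.45 to 9.51, 9.44 to 9.56 and 9.55 to 9.65. In the same order, 5 meningeal and mural markers summed to 9.19 to 9.42, 9.30 to 9.55 and 9.43 to 10.20. Co-culture array 2 had Dcn at 8.25 and Lum at 7.47, against 6.97 and 6.43 on array 1 and 6.42 and 5.50 on array 3. The part of the cells marked by these lists in the differences of guidance genes was not tested. In such whole-culture samples, fewer cells of a type and less RNA per cell cannot be told apart.

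Most guidance genes lay above the array median, which is the median of all probe sets of an array. A gene was counted where this held on all 3 arrays of a culture. The count was 32 of 39 in neurons, 33 in precursors, with 34 in the co-culture, or 82.1%, 84.6% and 87.2%, against 53.9%, 54.4% and 55% of all genes. All 16 ligands were above it in precursors and in the co-culture. In neurons, Ntn4 was below it on all 3 arrays and Efna1 on 1 array (6.74 against a median of 6.75). Among the receptors, 18 of 23 were above it in neurons, 17 in precursors, with 18 in the co-culture. Epha1, Epha2, Robo3 and Robo4 were below it on all 9 arrays. Epha6 passed it on 1 of 3 precursor arrays. Epha8 passed it on 2 precursor arrays and 1 co-culture array, and Ephb4 on 1 neuron array.

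**Figure D1:**
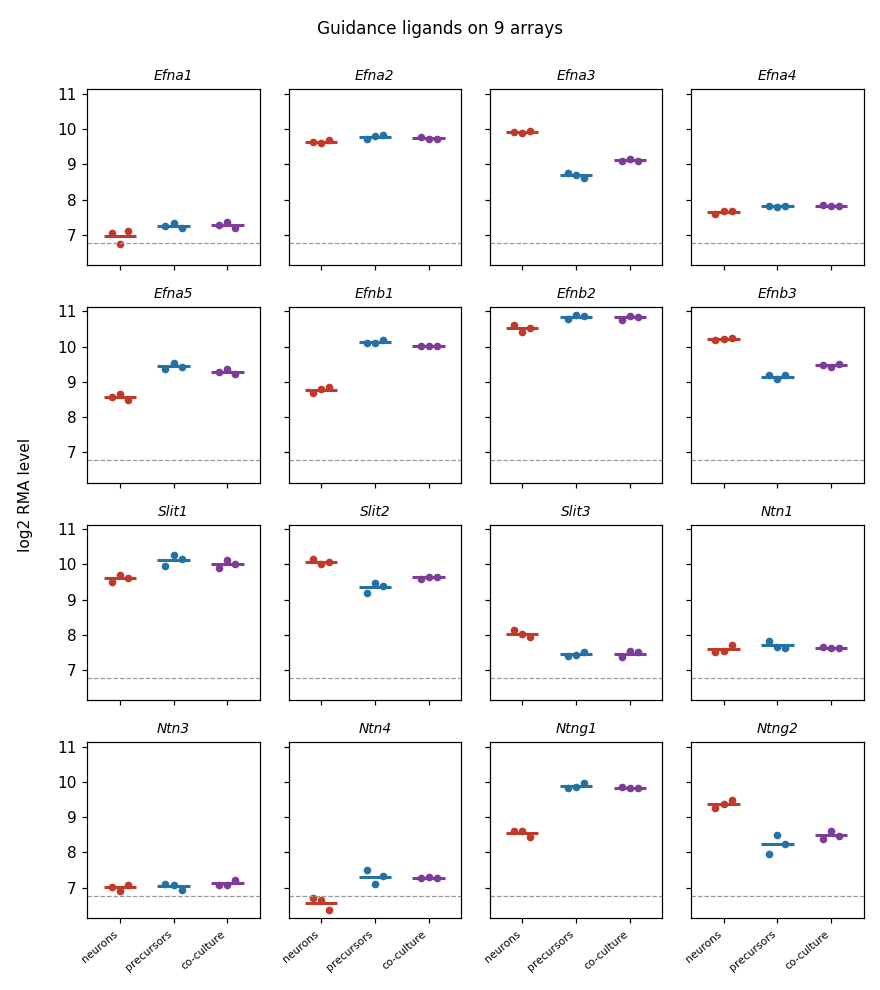
Levels of the 16 ligand genes on the 9 arrays (y axis: log2 RMA level; x axis: culture; points: arrays; lines: means of 3; dashed line: median of the 9 array medians). Efna3, Efnb3, Slit2, Slit3 and Ntng2 stand higher in neurons than in precursors, while Efna5, Efnb1, Slit1, Ntn4 and Ntng1 stand lower.

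The first comparison asked which guidance genes differ between neurons and precursors. Of 35 tested members, 15 were higher and 13 lower in neurons (limma, Benjamini-Hochberg adjusted p under 0.05 over all tested genes), or 80%, where 63.1% of the 13012 tested genes were called. In this comparison 28% of all tested genes were higher and 35.2% lower. Differences of at least 2-fold were found for 11 members, 8 higher and 3 lower, beside 10.3% of all tested genes (5.49% higher and 4.8% lower). The median difference was 0.01 over the members and -0.02 over all tested genes. Ligands were higher in 5 and lower in 9 of 16 cases (median -0.16), and receptors higher in 10 and lower in 4 of 19 (median 0.17). Related genes often moved in opposite directions, as the following families show.

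Among the ephrin-A ligands 1 was higher and 4 were lower in neurons. Efna3 was at 9.90, 9.87 and 9.94 on the neuron arrays, 8.77, 8.71 and 8.62 on the precursor arrays and 9.10, 9.16 and 9.10 in the co-culture. These ranges do not overlap, and the co-culture lies between the other cultures. The neuron level was 2.31-fold that of precursors (log2 difference 1.21, SE 0.049, adjusted p = 2.62e-08, limma). Efna5, a repellent of axons that carry EphA receptors, was 1.84-fold lower in neurons (-0.88, adjusted p = 1.36e-06). Efna1 (-0.30, adjusted p = 0.0185), Efna2 (-0.15, 0.0159) and Efna4 (-0.17, 0.00631) were lower by less. Efna1 did not pass without precursor replicate 2 (adjusted p = 0.0678), and Efna2 passed neither without precursor replicate 3 (0.0591) nor with cyclic loess normalization (-0.05, 0.364). In the mouse gene table Efna1, Efna3 and Efna4 are neighbours on chromosome 3 with 0 protein-coding genes between them, so adjacent genes moved in opposite directions here.

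The ephrin-B ligands showed a similar split. Efnb1 was at 8.69, 8.80 and 8.85 in neurons, 10.10, 10.11 and 10.18 in precursors, with 10.01, 10.03 and 10.01 in the co-culture. Every neuron array lay below every other array, and the neuron level was 2.55-fold lower than that of precursors (-1.35, SE 0.051, adjusted p = 1.68e-08, limma). Efnb3 took the opposite direction, with 10.18, 10.23 and 10.24 in neurons, 9.18, 9.07 and 9.18 in precursors, with 9.48, 9.43 and 9.51 in the co-culture. Neurons were 2.10-fold above precursors without overlap (1.07, SE 0.048, adjusted p = 4.70e-08). Efnb2, which also marks arterial endothelium, was lower in neurons by a smaller margin (-0.32, adjusted p = 9.52e-04).

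EphA receptors bind mainly ephrin-A ligands. Of the 7 tested, 5 were higher in neurons and none lower by limma, also none at an unadjusted p under 0.05. Epha6 was at 8.36, 8.39 and 8.38 in neurons, 6.77, 6.81 and 6.75 in precursors, with 7.19, 7.19 and 7.18 in the co-culture. The 3 cultures form separate bands, and neurons were above precursors (1.60, SE 0.038, adjusted p = 1.65e-09). Only 1 precursor array of Epha6 lay above the array median. The gene passed the filter through the other cultures, so no fold against precursors is given. Epha7 was at 9.83, 9.79 and 9.88 in neurons, 8.84, 8.85 and 8.78 in precursors, with 9.08, 9.10 and 8.92 in the co-culture. Its neuron level was 2.01-fold that of precursors, without overlap (1.01, SE 0.056, adjusted p = 2.15e-07). Epha10, whose product lacks an active kinase, was higher by 0.37 (adjusted p = 0.00575) and Epha3 by 0.16 (0.0132).

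Epha8 was higher by 0.27 (adjusted p = 0.0389, limma), with neuron and precursor arrays that overlap. Its call was lost without the filter on low levels (0.0655), and when neuron array 1 (0.139) or 3 (0.0887), precursor array 2 (0.132) or co-culture array 1 (0.0549), 2 (0.0536) or 3 (0.0537) was left out. Its difference was 0.20 without neuron array 1, 0.16 without precursor array 2 and 0.26 to 0.27 in the other alternatives that lost the call. Epha5 did not pass (0.17, adjusted p = 0.0578), but did with cyclic loess (0.27, 0.00449), the stricter filter (0.0394), an intensity trend (0.0301), or without precursor replicate 2 (0.0417) or 3 (0.0456). Epha4, a receptor for ephrins of both classes, did not pass (-0.07, 95% interval -0.16 to 0.03, adjusted p = 0.189). Epha1 and Epha2 were below the filter and untested, with levels of 5.84 to 6.34 and 6.11 to 6.35 over the 9 arrays.

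EphB receptors bind mainly ephrin-B ligands, and here 1 was higher and 2 lower in neurons. Ephb6, whose product also lacks an active kinase, was at 8.58, 8.68 and 8.61 in neurons and 7.86, 7.80 and 7.98 in precursors. All 3 co-culture arrays had the same deposited value of 8.21, between the other cultures. Such ties were seen for 165 of 13012 tested genes in the co-culture, 42 in neurons and 68 in precursors. The SE of 0.054 for Ephb6 comes from the spread of all groups. Neurons were 1.68-fold above precursors (0.74, adjusted p = 1.35e-06, limma). Ephb4 was lower in neurons by 0.79 (adjusted p = 1.24e-05) and Ephb3 by 0.36 (adjusted p = 0.00181). Only 1 neuron array of Ephb4 lay above the array median, so no fold is given for it. Ephb1 did not pass, with a difference of 0.02 (95% interval -0.08 to 0.11, adjusted p = 0.750). A dimmer probe set of Ephb1 lay at 7.16 to 7.32 in neurons and 7.18 to 7.21 in precursors, and it overlapped likewise.

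**Figure D2:**
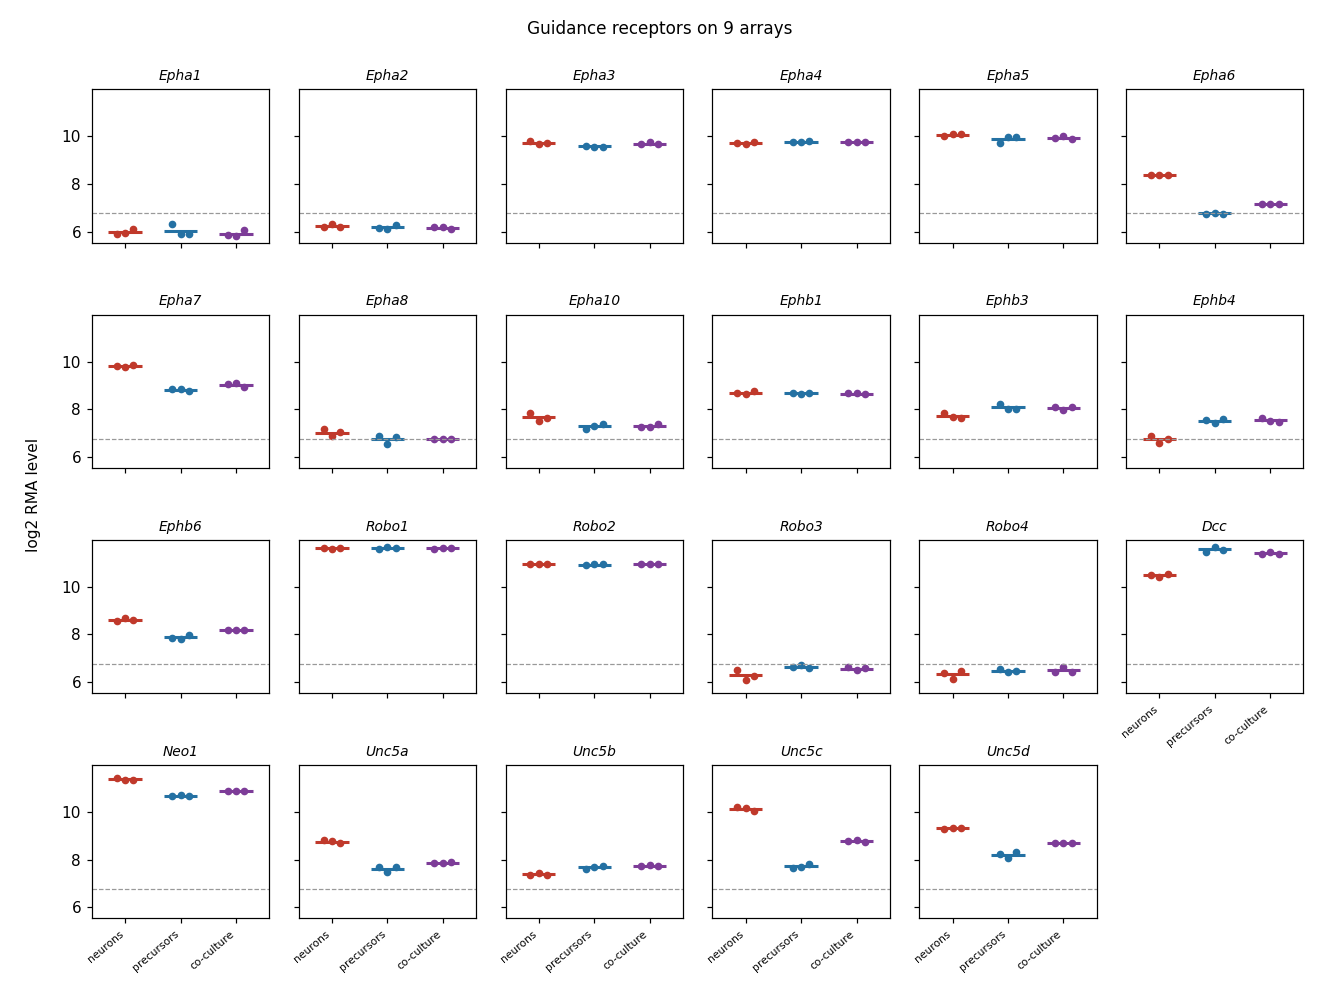
Levels of the 23 receptor genes on the 9 arrays (y axis: log2 RMA level; x axis: culture; points: arrays; lines: means of 3; dashed line: median of the 9 array medians). Unc5c, Unc5d, Unc5a, Epha6 and Epha7 stand higher in neurons, Dcc and Ephb4 stand lower, and Robo1 and Robo2 lie at nearly the same level in all 3 cultures.

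Ephb4, the usual partner of Efnb2 on veins, and Ntn4, a netrin of vessel walls and basement membranes, are also genes of blood vessels. Ntn4 was at 6.70, 6.66 and 6.37 in neurons and at 7.11 to 7.50 in precursors, and was lower in neurons (-0.74, adjusted p = 1.89e-04, limma). Its neuron arrays lay below the array median, so no fold is given. The summed level of the 5 endothelial markers moved the same way, at 8.80 to 8.90 in neurons, 9.38 to 9.49 in precursors, with 9.37 to 9.73 in the co-culture. Of these markers, Cdh5 (-1.21), Pecam1 (-0.34) and Kdr (-0.30) were lower in neurons, and Cldn5 and Tek were below the filter. Pecam1 and Kdr lay below the array median on all 3 neuron arrays and entered the test through the other cultures. The part of endothelial RNA in the levels of Ephb4, Ntn4, Efnb2 and Unc5b was not tested.

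Of the Slit genes 2 were higher and 1 lower in neurons. Slit2 was at 10.16, 10.02 and 10.05 in neurons, 9.19, 9.47 and 9.39 in precursors, with 9.59, 9.65 and 9.65 in the co-culture, in 3 separate bands. It was 1.65-fold higher in neurons than in precursors (0.72, SE 0.072, adjusted p = 1.20e-05, limma). Slit3 was 1.50-fold higher (0.58, adjusted p = 3.34e-05). Slit1 went the other way and was 1.44-fold lower in neurons (-0.52, adjusted p = 5.54e-04).

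Their receptors Robo1 and Robo2 were at close levels in every culture. Robo1 lay at 11.58 to 11.62 in neurons, 11.60 to 11.68 in precursors, with 11.59 to 11.62 in the co-culture. The difference between neurons and precursors was -0.02 (95% interval -0.11 to 0.07, adjusted p = 0.651, limma). Robo2 lay at 10.93 to 10.95, 10.90 to 10.94 and 10.93 to 10.96, with a difference of 0.01 (95% interval -0.07 to 0.10, adjusted p = 0.781). With cyclic loess Robo2 passed at 0.11 (adjusted p = 0.0304). Robo3, a divergent Robo known from commissural axons, and Robo4, known from endothelium, were below the filter, with levels of 6.10 to 6.72 and 6.12 to 6.63 over the 9 arrays. Without the filter Robo3 was lower in neurons (-0.37, adjusted p = 0.00899).

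The secreted netrins Ntn1 (-0.12, 95% interval -0.26 to 0.03, adjusted p = 0.142) and Ntn3 (-0.03, -0.18 to 0.12, 0.697) did not pass in limma's test of neurons against precursors. Ntn1 passed without neuron replicate 3 (-0.17, adjusted p = 0.0390). Both netrin-G genes changed, in opposite directions. Ntng1 was at 8.61, 8.62 and 8.43 in neurons, 9.84, 9.87 and 9.97 in precursors, with 9.84, 9.84 and 9.83 in the co-culture. Only the neuron arrays stand apart, and neurons were 2.52-fold lower than precursors (-1.34, SE 0.060, adjusted p = 4.75e-08, limma). Ntng2 was at 9.27, 9.36 and 9.50 in neurons, 7.95, 8.48 and 8.24 in precursors, with 8.38, 8.62 and 8.45 in the co-culture. Here neurons lay above all other arrays, 2.22-fold above precursors, while precursors and co-culture overlap (1.15, SE 0.12, adjusted p = 2.16e-05).

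The receptors of secreted netrins gave the largest difference among the members. Unc5c was at 10.19, 10.18 and 10.03 in neurons, 7.63, 7.68 and 7.81 in precursors, with 8.77, 8.82 and 8.75 in the co-culture. The 3 cultures are far apart, and neurons were 5.37-fold above precursors (2.43, SE 0.062, adjusted p = 1.95e-09, limma). Unc5a was at 8.81, 8.77 and 8.68 in neurons, 7.68, 7.49 and 7.67 in precursors, with 7.84, 7.84 and 7.89 in the co-culture, 2.20-fold higher in neurons (1.14, adjusted p = 1.45e-07). Unc5d was at 9.28, 9.34 and 9.31, 8.21, 8.09 and 8.30, and 8.68, 8.70 and 8.68 in the same order, 2.16-fold higher in neurons (1.11, adjusted p = 9.89e-08). For both genes no array of 1 culture reached the range of another. Unc5b, the family member known from vessels, was lower in neurons instead (-0.30, adjusted p = 3.73e-04).

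Dcc and Neo1, relatives that both bind netrins, also moved apart. Dcc was at 10.48, 10.40 and 10.55 in neurons, 11.47, 11.67 and 11.55 in precursors, with 11.38, 11.47 and 11.38 in the co-culture. It was 2.12-fold lower in neurons than in precursors, and the precursor and co-culture arrays overlap (-1.09, SE 0.063, adjusted p = 2.73e-07, limma). Neo1, which also binds repulsive guidance molecules, was at 11.34 to 11.42 in neurons and 10.65 to 10.71 in precursors, 1.61-fold higher in neurons (0.69, adjusted p = 3.81e-07).

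The start regions of 4 of these netrin genes are shown because Unc5c and Unc5b, and Ntng1 and Ntng2, moved in opposite directions. Each holds 250 bases before and 50 after an annotated start, from RefSeq on build GRCm38.p6, written 5′ to 3′ on the gene's strand, and capitals mark the GC box GGGCGG or its reverse complement CCGCCC.
Unc5c, chr3:141465314-141465613, plus strand: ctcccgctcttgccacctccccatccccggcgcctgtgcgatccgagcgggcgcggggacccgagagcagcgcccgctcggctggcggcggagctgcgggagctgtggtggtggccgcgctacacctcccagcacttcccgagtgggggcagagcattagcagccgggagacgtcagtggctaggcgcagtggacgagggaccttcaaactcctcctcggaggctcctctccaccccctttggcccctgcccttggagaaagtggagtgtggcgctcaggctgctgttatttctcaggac
Unc5b, chr10:60831532-60831831, minus strand: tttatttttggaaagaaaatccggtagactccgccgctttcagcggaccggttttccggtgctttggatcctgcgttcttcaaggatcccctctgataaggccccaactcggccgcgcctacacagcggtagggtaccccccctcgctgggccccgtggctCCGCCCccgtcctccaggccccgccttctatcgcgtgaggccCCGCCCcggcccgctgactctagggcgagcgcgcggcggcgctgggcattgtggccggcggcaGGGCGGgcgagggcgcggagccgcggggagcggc
Ntng1, chr3:110143423-110143722, minus strand: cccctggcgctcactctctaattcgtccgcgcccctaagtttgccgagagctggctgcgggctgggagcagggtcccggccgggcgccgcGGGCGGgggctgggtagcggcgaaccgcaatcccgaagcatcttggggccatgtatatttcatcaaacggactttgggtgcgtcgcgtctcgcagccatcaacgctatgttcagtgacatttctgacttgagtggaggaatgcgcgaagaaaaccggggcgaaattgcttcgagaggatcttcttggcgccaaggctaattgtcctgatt
Ntng2, chr2:29248050-29248349, minus strand: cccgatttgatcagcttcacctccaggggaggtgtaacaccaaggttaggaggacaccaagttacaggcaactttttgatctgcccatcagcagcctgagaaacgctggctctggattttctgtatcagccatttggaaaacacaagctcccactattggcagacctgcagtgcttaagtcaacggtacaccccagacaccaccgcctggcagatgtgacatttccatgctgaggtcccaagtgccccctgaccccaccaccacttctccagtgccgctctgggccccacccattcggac
Unc5b holds 3 GC boxes and Ntng1 holds 1, while the windows of Unc5c and Ntng2 hold 0. Over all 34 members with a window, these 4 included, a GC box was present for 10 of 13 that were higher in neurons and 9 of 11 that were lower. Over windows, 71.8% of the members' 39 and 35.7% of all 32851 held it. The E-box CAGNTG, searched on both strands as CAGNTG and CANCTG, was in 30.8% and 51.4%. Which start the arrays' RNA came from was not tested, and a match is not evidence of binding.

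**Figure D3:**
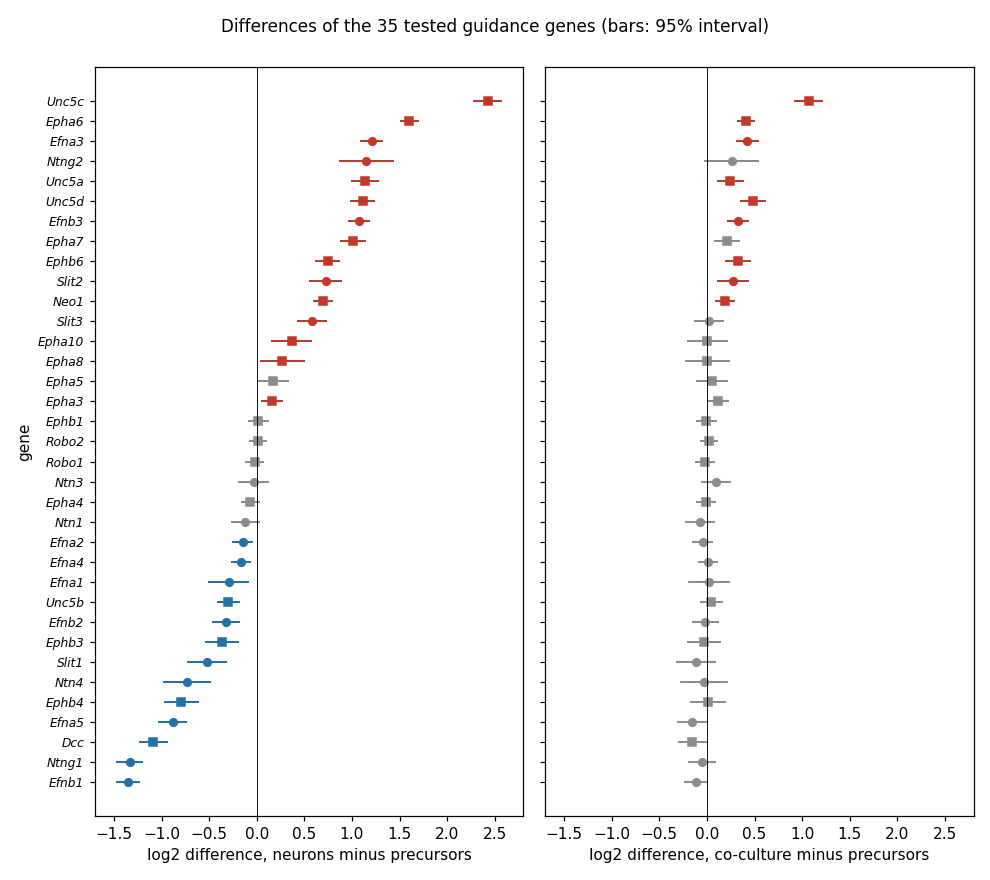
Log2 differences (x axes) of the 35 tested members (y axis), neurons minus precursors on the left and co-culture minus precursors on the right; circles are ligands, squares receptors, bars 95% intervals, and red and blue mark genes called higher and lower (limma, adjusted p under 0.05). Both panels share the precursor arrays. The left panel runs from -1.35 for Efnb1 to 2.43 for Unc5c, and the right panel has 9 members higher and 0 lower.

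The next comparison asked which guidance genes differ from precursors alone once neurons are present. The co-culture RNA holds RNA of the neurons themselves, so a level between the separate cultures needs no change in either cell type. Of 35 tested members, 9 were higher than in precursors and 0 lower (limma), or 25.7%, where 8.42% of all tested genes were called (8.22% higher and 0.2% lower). At an unadjusted p under 0.05, 11 were higher and 3 lower. The median difference was 0.02 over the members and 0.02 over all tested genes. By role, 3 of 16 ligands and 6 of 19 receptors were higher. All of these 9 genes were also higher in neurons than in precursors, a comparison that uses the same precursor arrays. The share of all called genes for which this holds was not counted, so this count is not read as particular to the members.

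Unc5c, with the array values given above, was 2.10-fold higher in the co-culture than in precursors (1.07, SE 0.062, adjusted p = 6.38e-06, limma), the only member past 2-fold, beside 0.407% of all tested genes. Unc5d was 1.40-fold higher (0.49, adjusted p = 4.49e-04), Efna3 1.34-fold (0.42, 5.19e-04), Ephb6 1.25-fold (0.33, 0.00445) and Efnb3 1.25-fold (0.32, 0.00219). Epha6 was higher by 0.41 (adjusted p = 1.36e-04, limma), with no fold given because of its low precursor level. In each of these 6 genes every co-culture array lay above every precursor array. The calls rest on these same arrays, and the share over all tested genes was not counted, so this adds no support. These calls held in every alternative that tested them.

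The other 3 calls were smaller and were lost with fewer arrays or with more genes tested. Unc5a (0.25, adjusted p = 0.0332, limma) was lost without the filter (0.0738), and on leaving out precursor array 2 (0.0919) or co-culture array 1 (0.0961), 2 (0.0969) or 3 (0.113). Neo1 (0.19, adjusted p = 0.0203) was lost without the filter (0.0597), and on leaving out precursor array 1 (0.0675) or 3 (0.0594) or co-culture array 1 (0.0838), 2 (0.0866) or 3 (0.0594). Slit2 (0.27, adjusted p = 0.0450) was lost with the replicate number as a block (0.0718), without the filter (0.0916), and on leaving out neuron array 3 (0.0627), precursor array 1 (0.0962) or 3 (0.0841), or co-culture array 1 (0.0992), 2 (0.155) or 3 (0.131). The differences stayed at 0.19 to 0.26 for Unc5a, 0.17 to 0.20 for Neo1 and 0.20 to 0.30 for Slit2 in the alternatives that lost the call. Epha7 narrowly missed the threshold (0.21, adjusted p = 0.0508) and passed with the stricter filter (0.0228), array weights (0.0191), an intensity trend (0.0250) and without co-culture replicate 3 (0.0169).

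None of the 13 members that were lower in neurons was called between co-culture and precursors. Of all tested genes 8.42% were called there and only 0.2% were lower. The absence of calls is therefore not read as particular to the members. Of the 13, Efna5 (-0.16, adjusted p = 0.222, limma), Dcc (-0.15, 0.228) and Efnb1 (-0.12, 0.274) were the 3 with an unadjusted p under 0.05. Ntng1 differed by -0.05 (95% interval -0.19 to 0.08, adjusted p = 0.755). Ntng2, though 2.22-fold higher in neurons than in precursors, did not pass either (0.26, 95% interval -0.02 to 0.54, adjusted p = 0.326). The co-culture was higher in each of the 3 same-numbered pairs, and with the replicate number as a block the adjusted p was 0.141. The precursor arrays of Ntng2 were the most spread of any member's, with an SD of 0.27 (n = 3).

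Against neurons alone, 12 members were higher in the co-culture and 14 lower (limma), 74.3% of 35 beside 60.6% of all tested genes (35.7% higher and 24.9% lower). Past 2-fold were 2 higher and 2 lower, beside 6.55% of all tested genes (4.27% higher and 2.28% lower). These values use the same neuron arrays as the first comparison. Ntng1 was 2.43-fold higher (1.28, SE 0.060, adjusted p = 1.37e-07), Efnb1 2.35-fold higher (1.24, 7.80e-08) and Dcc 1.91-fold higher (0.93, 1.22e-06). These are cues and receptors whose neuron arrays lay below all others. Unc5c was 2.56-fold lower (-1.36, adjusted p = 1.27e-07), Epha6 2.29-fold lower (-1.19, 2.28e-08) and Ntng2 1.86-fold lower (-0.89, 1.58e-04). Efna1 (0.32, adjusted p = 0.0141) was lost without co-culture replicate 2 (0.0539), and Epha8 (-0.27, 0.0432) was lost in 8 of the 16 alternatives that tested it.

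No member was called outside the range set by the separate cultures. By limma 0 of 35 were above both or below both at an adjusted p under 0.05, where 0% of all tested genes were, and 0 at an unadjusted one-sided p under 0.05, where 1.08% of all tested genes were above and 0.976% below. The smallest unadjusted p was 0.0950, for Ntn3 above both, with means of 7.01 in neurons, 7.04 in precursors, with 7.14 ± 0.082 (SD, n = 3) in the co-culture.

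Genes that act with these cues inside or beside the receptors were examined as 3 lists. Of 9 Slit and Robo partners, all tested, 8 were higher in neurons than in precursors and 1 lower (limma, median difference 0.48, against -0.02 over all tested genes, of which 28% were higher and 35.2% lower). Srgap1 (0.78, adjusted p = 6.29e-07) and Srgap3 (0.73, 8.16e-07), GTPase-activating proteins that bind Robo receptors, and Nell2 (0.58, 1.32e-05), a secreted Robo3 ligand, were higher. The 1 lower partner was Gpc1, a proteoglycan that binds Slits (-0.38, adjusted p = 1.84e-04). Robo1 and Robo2 themselves differed by -0.02 and 0.01.

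Of 14 tested netrin partners, 10 were higher in neurons and 1 lower (median 0.34), or 78.6% called beside 63.1% of all tested genes. Lrrc4c, the surface partner of netrin-G1, was 5.42-fold higher in neurons (2.44, adjusted p = 1.43e-08, limma), while Ntng1 itself was 2.52-fold lower. Lrrc4, the partner of netrin-G2, was higher at 0.71 (1.47e-05), as was Ntng2. Trim67 (1.63, 4.01e-08) and Trim9 (1.40, 1.66e-08), ubiquitin ligases that bind Dcc, were higher where Dcc was lower. Dock1, a Rac activator downstream of Dcc, was lower in neurons (-2.44, 4.39e-09), with means of 6.47 in neurons and 8.91 in precursors. It lay below the array median on all 3 neuron arrays and entered the test through the other cultures, so no fold is given. Trim9 and Lrrc4 were chosen after their values were seen. In the co-culture Lrrc4c (0.95, adjusted p = 1.31e-04), Trim9 (0.59, 1.02e-04) and Trim67 (0.53, 0.00119) were above precursors.

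Of 17 tested Eph and ephrin partners, 7 were higher in neurons, 5 lower and 5 did not pass (median 0.05). The share called, 70.6%, is near the 63.1% of all tested genes. Ngef, an exchange factor that binds EphA receptors, was 2.09-fold higher (1.06, adjusted p = 4.53e-08, limma). Inppl1, a lipid phosphatase that binds Eph receptors, was lower (-0.86, 4.31e-06), and so was the adaptor Nck1 (-0.55, 4.60e-05).

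**Figure D4:**
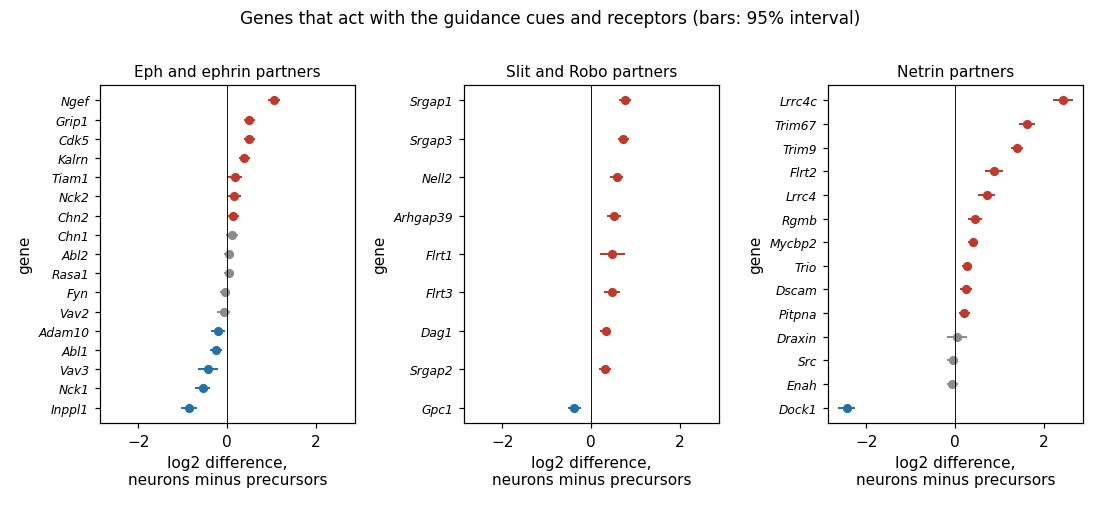
Log2 differences between neurons and precursors (x axes) of 17 tested Eph and ephrin partners, 9 Slit and Robo partners and 14 netrin partners (y axes: genes); points are estimates, bars 95% intervals, and red and blue mark genes called higher and lower. Lrrc4c at 2.44 and Dock1 at -2.44 lie farthest from 0, and 8 of 9 Slit and Robo partners lie above 0.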

How the data were processed

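Cultures, groups and replicate numbers were taken from the labels. The authors deposited log2 levels, 1 per probe set; the submitters' processing notes name oligo and RMA, without versions or a genome build. RMA makes the arrays' distributions alike and understates folds of dim genes. Of 41345 probe sets, 23521 had 1 gene symbol, 1814 several and 16010 none. Each of 22180 genes was read from its probe set of highest mean; 1 member, Ephb1, had more than 1. Genes above the array median on at least 3 of 9 arrays were tested (13012).

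All 3 groups entered 1 model in limma 3.58.1 (R 4.3.3), with Benjamini-Hochberg adjustment over all tested genes. Tests are two-sided. For a level outside both separate cultures, the larger one-sided p of the pair was used. The code was tested on simulated data. The p-values measure the spread between labelled biological replicates, and the sources used here do not say which embryos they came from. Precursor and co-culture arrays of the same number deviated together (correlations across genes of 0.34, 0.30 and 0.16). Each was above 0.1, and the numbers were taken to pair these groups. Neuron arrays were not taken to pair with those of precursors (0.0043, 0.13 and -0.15) or of the co-culture (-0.0051, 0.27 and 0.17). Replicates 2 and 3 of co-culture and neurons exceeded the 0.16 accepted above, so these values do not settle the pairing. The main tests used no block. Marker levels were summed on the linear scale and given as log2. The members and lists were chosen with earlier results of these data known. Array values are given for members at least 2-fold different between neurons and precursors and for the 6 largest differences in each other comparison; up to 3 genes are named per partner list. Slit2, Ntn4, Robo1, Robo2, Neo1 and Gpc1 were added after their values were seen. Alternatives were other filters and normalizations, array weights, an intensity trend, the replicate block, mean probe sets, and each array left out.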

Additional observations from a re-analysis of the deposited data

How the results depend on the processing

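No called direction changed in the alternatives, of which there were 17, or 16 for members that the stricter filter left out. Of the 28 calls between neurons and precursors, 25 held in every alternative that tested the gene, and 3 members outside the calls passed in some; for co-culture against precursors these numbers were 6 of 9 and 1, and against neurons 24 of 26 and 4. With the filter at the 75th percentile, which tests fewer genes, 7 members were lower in neurons than in precursors in place of 13, and 7 were higher in the co-culture than in neurons in place of 12. Leaving out each array in turn gave 27 to 28 calls between neurons and precursors, 6 to 9 between co-culture and precursors and 24 to 26 between co-culture and neurons. Without the filter 6 members were higher in the co-culture than in precursors. With the replicate block there were 29, 8 and 26 calls. Slit2 was lost in co-culture against precursors, and the block changed no other call there. The extra call, Epha5 (adjusted p = 0.0362, limma), is in neurons against precursors. These groups were not taken to pair, though the correlations do not settle the pairing. Against neurons, Epha8 was lost without the filter (adjusted p = 0.0700), with cyclic loess (0.0541) and without neuron replicate 1 (0.151) or 3 (0.0960), precursor replicate 3 (0.0536) or co-culture replicate 1 (0.0935), 2 (0.0970) or 3 (0.0792). Efna2, Epha3, Epha5 and Ntn3 are the 4 that passed there in some alternative. The counts above the array median were the same with cyclic loess, centred arrays and mean probe sets. Probe sets near the median have the least signal over background, and no detection calls were used.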
